A study of Mus musculus with 6 samples.

Results

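The genes described here encode collagens, the enzymes and chaperone that build and crosslink them, and the fibrillar and adhesive proteins laid down with them. They were chosen by symbol from the deposited table of 11417 genes: collagen chains (Col followed by a chain number), P4h, Plod and Lox genes, fibrillins (Fbn), numbered fibulins (Fbln), Sparc, Postn, Fn1, Tnc, thrombospondins (Thbs) and Serpinh1. Col17a1, a hemidesmosome component, was left out by that choice. The choice gave 48 genes, and 1 of them, Col4a3bp, carries a collagen-like symbol but encodes a ceramide transfer protein. It was kept in the counts and left out of the matrix composition. A level of 1 RPKM or more in 2 or more libraries was asked of a gene before testing, and 42 of the 48 met it. The other 6, Col2a1, Col5a2, Col11a2, Col20a1, Col27a1 and Fbln2, are given as levels.

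The study sequenced poly(A) RNA of 3 established mouse mammary cell lines, BC44, HC11 and C57MG, with 2 replicate libraries of each. All cells were untreated and were harvested 2 days after plating on plastic. The medium of BC44 was RPMI1640 with 10% serum and 5 µg/ml insulin. HC11 had this medium too, supplemented by 10 ng/ml EGF (epidermal growth factor). For C57MG it was DMEM, the serum again 10% and the insulin 10 µg/ml. No allele, transgene or drug distinguished the groups in the labels and line and medium cannot be told apart. The labels do not say whether the replicates were separate cultures, so p-values measure only the spread between these libraries, which may be technical.

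Fibrillar collagens assemble in the cell as triple helices. Prolyl and lysyl hydroxylases modify the chains, the chaperone encoded by Serpinh1 holds the folded helix, and lysyl oxidases crosslink the fibrils outside the cell. Network-forming collagen IV builds the basement membrane under epithelium, collagen VII anchors that membrane to the stroma, and collagens I, III and VI with fibrillin and fibronectin make up interstitial matrix. In the mammary gland interstitial collagen is mostly a product of stromal fibroblasts, while epithelial and myoepithelial cells contribute basement membrane.

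Levels are given in RPKM, a read count corrected for a gene's length and for the depth of its library, so that those of different genes can be set side by side. Estimated depth was 14270000 to 18480000 reads a library. All 3 lines are labelled mammary epithelial. Of 13 listed epithelial markers 11 were in the table, of which 8 and 8 reached 1 RPKM in the BC44 libraries, 11 and 11 in HC11, but 3 and 1 in C57MG. In C57MG replicates 1 and 2 Epcam stood at 0.949 and 0 RPKM and Krt14 at 118 and 64.8. The 11 mesenchymal markers that are not among the matrix genes summed to 6561 and 6255 RPKM in C57MG, 96.5 and 183.6 in BC44, and 92.6 and 84.8 in HC11. Most of that sum was Vim and S100a4, at 2708 and 3684 RPKM in C57MG replicate 1. Among the other mesenchymal markers 2, named after their values were seen, did not follow it. Snai2 was at 32.1 and 42.9 RPKM in BC44, 10.8 and 10.03 in HC11, with 7.85 and 6.58 in C57MG. Prrx1 was at 2.101 and 2.106 in HC11 against 1.605 and 1.793 in C57MG. The summed epithelial markers were lower in C57MG, from 2278 to 5071 RPKM in BC44 and HC11 against 137.2 and 65.5 in C57MG. Of 5 listed endothelial and 5 immune markers, 2 and 1 were in the table, and the highest value of the 3 was 3.302 RPKM. The 1 adipocyte marker of 4 in the table, Fabp4, was at 4.14 and 8.77 RPKM in HC11, 1.72 and 1.35 in BC44, and 0.695 and 0.407 in C57MG. Beside the differences between C57MG and the other lines, these marker levels moved too, and their part in the differences was not tested.

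Some libraries also carried a low signal of genes that belong to another line, and that signal sets a lower limit for reading any gene. It was measured on genes private to a donor line, with the 48 matrix genes left out. In BC44 replicate 2 the median of the 67 genes private to C57MG was 2.01% of what they showed in C57MG itself, with 97.0% of these genes less than 2-fold away from it. In BC44 replicate 1 the median was 0.662% over 68 genes, 64.7% of them that close to it. In the HC11 libraries it was 0.254% and 0.367%, with only 21.7% and 21.5% of the genes that close, so that the limit set by C57MG is less well defined in HC11 than in BC44. The BC44-like signal was 0.729% in C57MG replicate 1 and 0 in replicate 2, from only 11 genes in each, and 2.38% and 1.21% in the HC11 libraries, from only 18. A gene was read as expressed in a library when it exceeded 2 times the signal expected from both other lines and also the level of 3 estimated reads. By that limit 44 of the 48 genes were read as expressed in both C57MG libraries, 34 in both BC44 libraries and 37 in both HC11 libraries. The limit differs between libraries, and the same count was not made over all genes. The order of the lines in these counts is thus not a result about matrix genes.

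**Figure D1:**
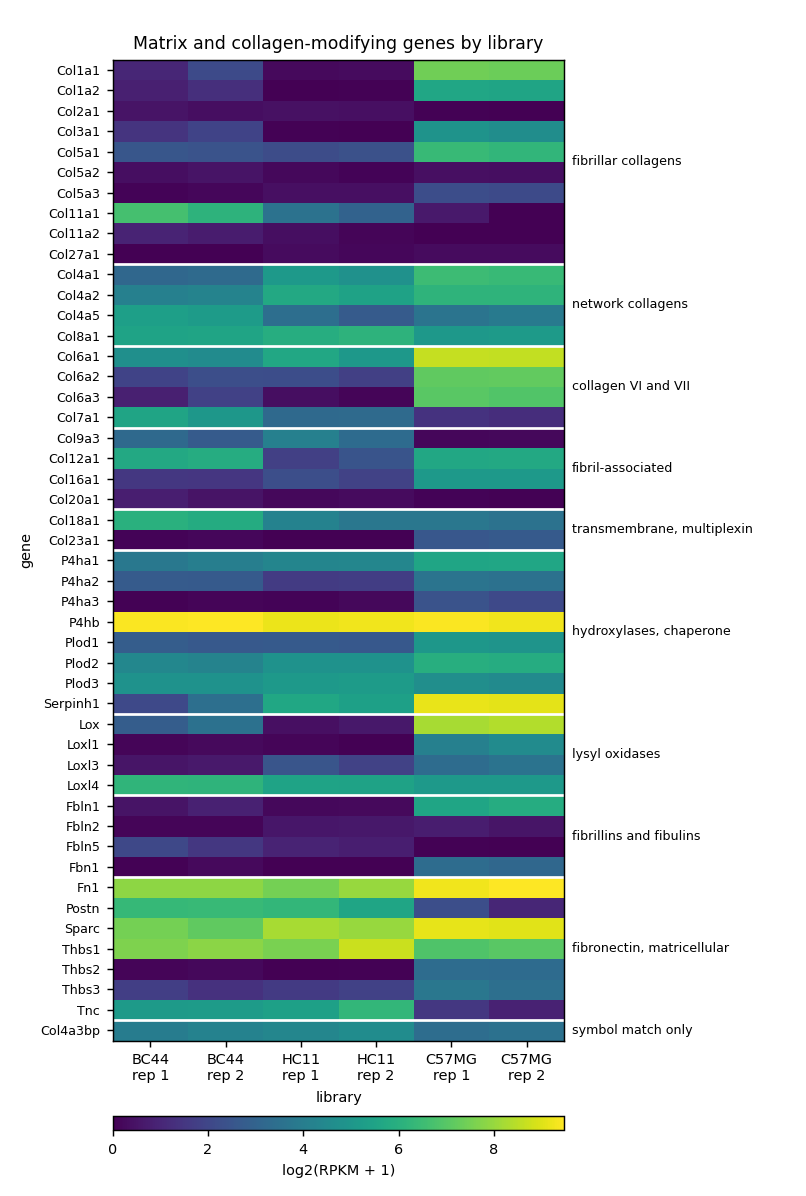
Level of each of the 48 genes, as log2(RPKM + 1) on a colour scale from 0 upward, in the 6 libraries, with rows grouped by role. The C57MG columns are bright for Col1a1, Col6a1, Lox, Serpinh1 and Fn1 and dark for Col11a1, Postn and Tnc, and P4hb is bright in every column.

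C57MG carried the most matrix transcript, and each line had its own leading collagens. The 48 genes summed to 4482 and 4453 RPKM in the C57MG libraries, to 2008 and 1992 in BC44, and to 1851 and 2108 in HC11. Of the summed RPKM of all genes in the table this was 1.39% in C57MG, 0.606% in BC44 and 0.575% in HC11. In bulk RNA, fewer cells of a kind and less RNA per cell cannot be told apart. The 24 collagen genes alone summed to 1309 and 1270 RPKM in C57MG, 421.5 and 370.1 in BC44, and 273.0 and 229.4 in HC11. In both C57MG libraries the 3 leading chains were Col6a1, Col1a1 and Col6a2, which held 54.1% and 55.2% of the collagen RPKM. In both BC44 libraries they were Col11a1, Col18a1 and Col12a1, with 51.6% and 48.9%. In both HC11 libraries they were Col8a1, Col4a2 and Col6a1, with 59.2% and 63.0%. No chain was among the leading 3 in all lines, and Col6a1 was the only one shared by HC11 and C57MG.

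Among the structural genes, which are all members but the enzymes, the chaperone and Col4a3bp, fibronectin and the matricellular proteins held the largest share in every library. That share was 50.0% ± 1.26 in C57MG, 64.6% ± 2.09 in BC44 and 78.2% ± 5.64 in HC11 (SD, n = 2 each). Collagens VI and VII held 24.6% ± 0.62 in C57MG, against 5.99% ± 0.665 in BC44 and 4.64% ± 1.86 in HC11. Of the 74.4 and 60.6 RPKM of that group in BC44, Col7a1 gave 45.6 and 31.5. In HC11 Col7a1 gave 8.55 and 8.68 of 63.4 and 43.2 RPKM, and in C57MG 1.61 and 1.38 of 671 and 657. Fibrillar collagens held 11.9% ± 0.743 in C57MG, 8.60% ± 1.66 in BC44 and 1.22% ± 0.408 in HC11. The fibrillar shares of BC44 and C57MG did not overlap, and they rested on different chains, as given below. Multiplexin and transmembrane collagens held 5.29% ± 0.301 in BC44 against 0.629% ± 0.0422 in C57MG. These are shares of transcript per length, not of protein, and were not tested.

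**Figure D2:**
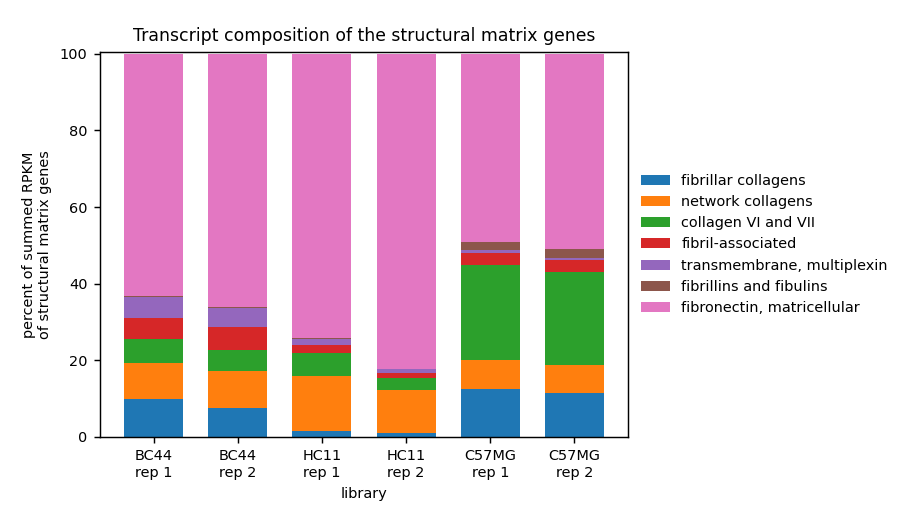
Share of the summed RPKM of the structural matrix genes, in percent, held by each role group in the 6 libraries (stacked bars). Fibronectin and matricellular genes take 49.1% to 82.2% of every bar, and the collagen VI and VII block is widest in the C57MG libraries, where its mean is 24.6%.

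Most of the tested genes differed between C57MG and either other line, and most of those were higher in C57MG. Differences were tested on log2(RPKM + 1) with limma over all 10759 genes that passed the filter, a call being a Benjamini-Hochberg adjusted p under 0.05. Between BC44 and C57MG 27 of 42 were called higher in C57MG, where 34.1% of all tested genes were, and 12 were called higher in BC44, where 37.5% of all were. Between HC11 and C57MG 29 of 42 were called higher in C57MG and 11 in HC11, against 33.2% and 37.4% of all tested genes. These contrasts share the C57MG libraries. Between BC44 and HC11 14 were called higher in BC44 and 12 in HC11, against 24.7% and 23.0% of all tested genes.

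By size, C57MG was at least 2-fold above both other lines, with both contrasts called, for 24 of 42 genes, against 10.2% of all tested genes. Of these 24, 7 (Col23a1, Col5a3, Fbln1, Fbn1, Loxl1, P4ha3 and Thbs2) reached 1 RPKM in C57MG libraries only, so that they entered the test through the line in which they were high and the count is a description. C57MG was at least 2-fold below both for 5 (Col11a1, Col7a1, Col9a3, Postn and Tnc), against 9.2%. BC44 was at least 2-fold above both for 4 (Col11a1, Col18a1, Col4a5 and Col7a1), against 3.45%, and below both for 4 (Col4a1, Col4a2, Loxl3 and Serpinh1), against 3.18%. HC11 stood above both for 0 of 42, against 3.47%, and below both for 7 (Col12a1, Col1a1, Col1a2, Col3a1, Col6a3, Lox and P4ha2), against 1.52%. The step from BC44 to HC11 was not called for Col1a1 and Col6a3 once the cross-line signal was subtracted, as given with each gene. For Col1a2 it stayed called but went to 0.58, under 2-fold. Col1a2 and Lox were above the cross-line limit in only 1 BC44 library. The median difference was -2.02 for BC44 minus C57MG and -1.69 for HC11 minus C57MG on the log2(RPKM + 1) scale, where the median of all tested genes was 0.04 and 0.03. For BC44 minus HC11 it was 0.11, with 0.02 over all. P4hb alone was called in no contrast.

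**Figure D3:**
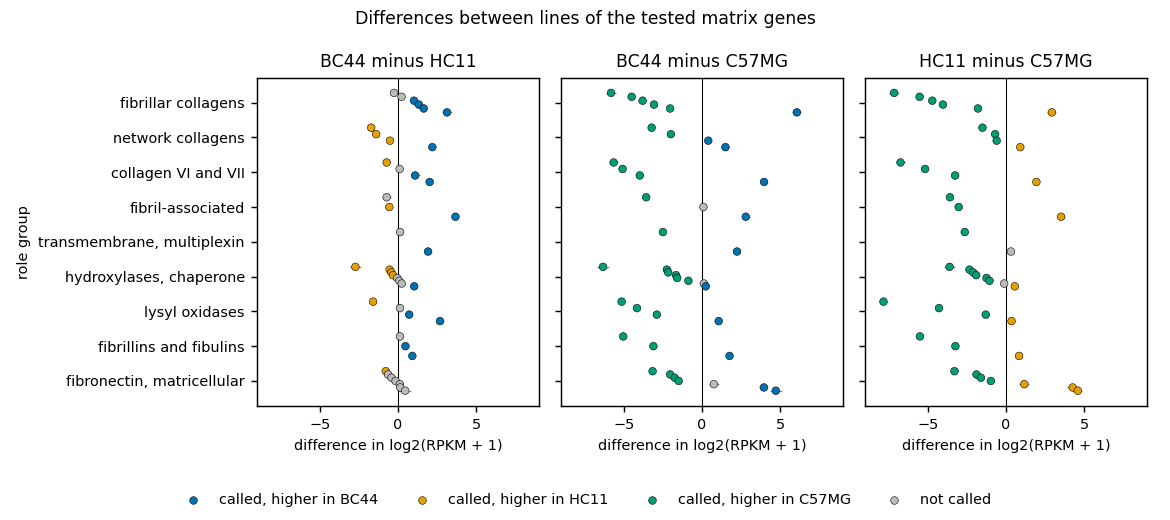
Difference in log2(RPKM + 1) of each tested matrix gene (points, with bars for 1 standard error) in the 3 contrasts, by role group, coloured by the line in which a called gene was higher. Most points of the panels with C57MG lie left of 0, while Col11a1, Col7a1, Col9a3, Postn and Tnc lie to the right, and the BC44 minus HC11 points lie on both sides.

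The major interstitial fibrillar collagens were highest in C57MG, and Col11a1 was the leading fibrillar collagen of BC44 and, at a lower level, of HC11. Of 10 fibrillar chains 6 were tested. Between BC44 and C57MG 5 were called higher in C57MG and 1 in BC44, against 34.1% and 37.5% of all tested genes. The same numbers held for HC11, against 33.2% and 37.4%. Of the 5, Col5a3 reached 1 RPKM in C57MG libraries only. Col1a1 (ENSMUSG00000001506), the alpha-1 chain of collagen I, was at 171 and 163 RPKM in C57MG, 1.02 and 3.40 in BC44, and 0.172 and 0.202 in HC11. The C57MG libraries stood far above the other 4, and the ratio of the 2 BC44 libraries was larger than that of the 2 C57MG libraries. The difference was -5.82 (SE 0.31, adjusted p = 2.23e-06) for BC44 minus C57MG and -7.15 (SE 0.31, adjusted p = 9.79e-07) for HC11 minus C57MG.

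Col1a2, whose product joins that of Col1a1 in the collagen I trimer, was at 47.8 and 45.1 RPKM in C57MG, 0.795 and 1.43 in BC44 and 0.022 and 0.040 in HC11. Per length, Col1a1 exceeded Col1a2 by 3.58 and 3.62 times in the C57MG libraries. Col3a1, the collagen III chain, was at 28.01 and 23.8 RPKM in C57MG, 1.71 and 2.76 in BC44, and 0.026 and 0.017 in HC11. Unlike Col1a1, Col3a1 was above the cross-line limit in both BC44 libraries, at 6.62% and 10.6% of its C57MG mean.

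Collagen V starts and thins collagen I fibrils, and its chains did not move as a set. Col5a1 was at 81.9 and 73.6 RPKM in C57MG, 4.87 and 4.39 in BC44, and 3.58 and 4.07 in HC11. Its usual partner Col5a2 was at most 0.412 RPKM in all 6 libraries, with 0.306 and 0.284 in C57MG, where Col5a1 was 268 and 259 times as high per length. Col5a2 lies next to Col3a1 in the RefSeq order of protein-coding genes (assembly GRCm38.p6), and Col3a1 was not low in C57MG. Col5a3 was at 3.70 and 3.33 RPKM in C57MG and at most 0.316 in the other libraries.

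Col11a1 (ENSMUSG00000027966) encodes a chain of collagen XI, a minor fibrillar collagen best known from cartilage. It was at 102 and 68.1 RPKM in BC44, 10.9 and 6.85 in HC11, with 0.556 and 0.020 in C57MG. The 3 lines did not overlap, and BC44 was the highest. Its difference was 6.07 (SE 0.29, adjusted p = 1.21e-06) for BC44 minus C57MG and 3.13 (SE 0.29, adjusted p = 0.000122) for BC44 minus HC11. The value in C57MG replicate 1 was not above the limit, with 0.622 RPKM expected there from the other lines. Col11a1 alone held 24.3% and 18.4% of the collagen RPKM of the BC44 libraries. Its partner chains Col11a2 and Col2a1 were low everywhere, at most 0.911 and 0.399 RPKM. Col27a1, a further fibrillar chain, reached at most 0.212 RPKM.

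Between BC44 and HC11 the fibrillar genes called higher in BC44 were Col11a1, Col1a1, Col1a2 and Col3a1, and none was called higher in HC11. For Col1a1 this call rested on values within the cross-line limit in all 4 libraries. Its difference was 1.33 (adjusted p = 0.0101), and 0.03 (adjusted p = 0.848) once the expected signal of the other lines was subtracted. It was also lost when HC11 replicate 1 or 2 was left out (adjusted p = 0.0582 and 0.0577), and over its 16 alternatives the adjusted p ran from 0.000306 to 0.848. The calls of Col11a1 (3.13, 3.36 with subtraction) and Col3a1 (1.64, 1.52 with subtraction) held. That of Col1a2 held too, but its difference went from 1.02 to 0.58, and it was above the limit in 1 of these 4 libraries, BC44 replicate 1.

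The promoters of 3 genes whose levels ran in different directions are shown, Col11a1 as the leading BC44 collagen, and Col1a2 and Serpinh1 as genes of the C57MG pattern. Each line gives the 100 bases before the RefSeq transcription start (GRCm38.p6), 5′ to 3′ on the gene's strand, with matches to CCAAT or GGGCGG on either strand in capitals.
Col11a1 (chr3:114030440-114030539, plus strand): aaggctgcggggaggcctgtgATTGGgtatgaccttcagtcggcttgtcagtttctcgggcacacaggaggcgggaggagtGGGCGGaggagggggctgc
Col1a2 (chr6:4505518-4505617, plus strand): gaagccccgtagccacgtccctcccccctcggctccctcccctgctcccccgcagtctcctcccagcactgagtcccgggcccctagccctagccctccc
Serpinh1 (chr7:99353240-99353339, minus strand): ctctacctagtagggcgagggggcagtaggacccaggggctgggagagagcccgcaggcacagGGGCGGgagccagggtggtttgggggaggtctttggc
Of the 48 genes 36 had a promoter in the RefSeq table. Within 250 bases before the start, GGGCGG (or CCGCCC) was present for 27 of 36, against 66.5% of the 8574 tested genes with a promoter. CCAAT (or ATTGG, the same motif on the other strand) was present for 14 of 36, against 41.0%, and TATAAA (or TTTATA) for 6 of 36, against 7.52%. Among the 18 matched genes at least 2-fold above both other lines in C57MG, 13 held GGGCGG, 6 CCAAT and 3 TATAAA, and among the other 18 the numbers were 14, 8 and 3. A match is a description of letters, not of a bound site, and the stretch of Col1a2 shown holds neither CCAAT nor GGGCGG.

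The basement membrane collagens were divided between the lines chain by chain. Col4a1 and Col4a2, neighbouring genes whose products form the common collagen IV trimer, were highest in C57MG and lowest in BC44. Col4a1 was at 88.3 and 83.6 RPKM in C57MG, 32.6 and 27.0 in HC11, and 7.93 and 8.74 in BC44. Col4a2 was at 70.8 and 71.3 RPKM in C57MG, 51.2 and 43.0 in HC11, and 16.4 and 17.9 in BC44. The 3 lines did not overlap for either gene, and both genes were called in all 3 contrasts. The Col4a1 difference was -3.22 (SE 0.11, adjusted p = 3.16e-07) for BC44 minus C57MG and -1.72 (SE 0.11, adjusted p = 2.01e-05) for BC44 minus HC11. Per length, Col4a1 was above Col4a2 in C57MG (1.25 and 1.17 times), and below it in HC11 (0.638 and 0.627) and BC44 (0.484 and 0.488).

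Col4a5, a chain of the specialised collagen IV trimers, had the opposite order for BC44. It was at 40.2 and 35.4 RPKM in BC44, 11.5 and 13.9 in C57MG, with 9.76 and 5.66 in HC11. In BC44 it exceeded Col4a1 5.07 and 4.05 times per length, while in C57MG and HC11 it was 0.131 to 0.299 of Col4a1. The Col4a5 difference was 1.5 (SE 0.21, adjusted p = 0.000446) for BC44 minus C57MG and 2.19 (SE 0.21, adjusted p = 0.000165) for BC44 minus HC11. HC11 and C57MG differed by -0.69 (adjusted p = 0.0217), a call lost without HC11 replicate 2 (-0.34, adjusted p = 0.0816) or without C57MG replicate 2 (-0.57, adjusted p = 0.119, the highest of 16 alternatives, the lowest being 0.00179).

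Col8a1, a short-chain network collagen, was the leading collagen of HC11 and varied least among the network chains. It was at 59.6 and 69.5 RPKM in HC11, 44.0 and 45.0 in BC44, and 32.5 and 34.5 in C57MG. All 3 contrasts were called, with differences from -0.52 to 0.92.

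Collagen VI, a beaded filament of interstitial matrix, was the most abundant collagen of C57MG. Col6a1 (ENSMUSG00000001119) was at 396 and 391 RPKM there, 50.9 and 32.0 in HC11, and 25.3 and 22.7 in BC44. Col6a2 was at 141 and 147 RPKM in C57MG and between 2.45 and 3.90 in the other 4 libraries. Col6a3 was at 132 and 118 RPKM in C57MG, 0.778 and 2.53 in BC44, and 0.279 and 0.082 in HC11. All 3 chains were called higher in C57MG than in either line, with differences from -3.25 to -6.74. The chains were closer to each other in C57MG, where Col6a1 was 2.80 and 2.67 times Col6a2 and 2.99 and 3.32 times Col6a3. In HC11 Col6a1 was 13.9 and 13.1 times Col6a2, and Col6a3 was not above the limit in either library. In BC44 Col6a3 was likewise not above the limit, and Col6a1 was 9.11 and 5.82 times Col6a2. Both lines thus held Col6a1 transcript without Col6a3 above the limit, although the 3 chains form the common trimer. The call of Col6a3 between BC44 and HC11 (1.09, adjusted p = 0.0169) went to 0.01 (adjusted p = 0.932) with the cross-line signal subtracted, and was lost without HC11 replicate 1 or 2 (adjusted p = 0.0541 and 0.104). Its lowest adjusted p over 16 alternatives was 0.00148.

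Col7a1, the anchoring fibril collagen that ties epithelial basement membrane to the stroma, ran against collagen VI. It was at 45.6 and 31.5 RPKM in BC44, 8.55 and 8.68 in HC11, with 1.61 and 1.38 in C57MG. The lines did not overlap. The difference was 3.97 (SE 0.17, adjusted p = 6.77e-07) for BC44 minus C57MG and 1.95 (SE 0.17, adjusted p = 3.08e-05) for HC11 minus C57MG.

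The fibril-associated collagens split 3 ways. Col12a1, which binds the surface of collagen I fibrils, was at 51.4 and 57.3 RPKM in BC44 and 50.4 and 51.3 in C57MG, but at 2.45 and 4.44 in HC11. BC44 and C57MG differed by 0.09 (SE 0.19, adjusted p = 0.683), and HC11 was lower than both, with 3.67 for BC44 minus HC11 (adjusted p = 8.47e-06). Its value in HC11 replicate 1 was not above the limit. Col16a1 was at 32.7 and 33.3 RPKM in C57MG and between 1.84 and 3.79 in the others, and was called higher in C57MG than in both. Col9a3, a chain of collagen IX, was at 16.4 and 8.97 RPKM in HC11, 8.54 and 5.58 in BC44, and 0.129 and 0.152 in C57MG. It was called higher in both lines than in C57MG, by 3.53 for HC11 and 2.80 for BC44. Col20a1 did not exceed 0.718 RPKM.

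Col18a1, the multiplexin collagen of epithelial and endothelial basement membranes, was highest in BC44 at 63.3 and 55.7 RPKM. It was at 17.6 and 12.6 RPKM in HC11 and 12.7 and 10.9 in C57MG, which overlapped and were not called apart (0.32, SE 0.16, adjusted p = 0.104). Without HC11 replicate 2 they were called apart (0.54, adjusted p = 0.0144), and the highest adjusted p of the 16 alternatives was 0.55. Col23a1, a transmembrane collagen, was at 4.99 and 5.41 RPKM in C57MG and listed at 0 in both HC11 libraries. Against the level of 3 estimated reads per library it was at least 160-fold higher in C57MG than in HC11. In BC44, at 0.060 and 0.130 RPKM, it was not above the cross-line limit.

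The chaperone and the hydroxylases were mostly higher in C57MG, with 6 of 8 called against BC44 and 6 of 8 against HC11. Of all tested genes 34.1% and 33.2% were so called. Only Plod3 was called the other way, as were 37.5% and 37.4% of all tested genes. Of the 6, P4ha3 reached 1 RPKM in C57MG libraries only. Serpinh1 (ENSMUSG00000070436), the collagen-specific chaperone HSP47 of the endoplasmic reticulum, had the widest range. It was at 568 and 542 RPKM in C57MG, 49.3 and 40.7 in HC11, and 3.29 and 10.1 in BC44. No lines overlapped, and the 2 BC44 libraries were 3.08-fold apart. Its difference was -6.33 (SE 0.37, adjusted p = 3.91e-06) for BC44 minus C57MG, -3.60 (SE 0.37, adjusted p = 8.97e-05) for HC11 minus C57MG and -2.73 (SE 0.37, adjusted p = 0.00088) for BC44 minus HC11.

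In BC44 Serpinh1 was within the cross-line limit in both libraries. The signal expected from the other lines was 3.69 and 11.2 RPKM, slightly more than the 3.29 and 10.1 RPKM measured. BC44 nevertheless held 421.5 and 370.1 RPKM of collagen transcript, where HC11 held 273.0 and 229.4. Set against Serpinh1, collagen RPKM was 128 and 36.6 times as high in BC44, 5.54 and 5.63 times in HC11, and 2.31 and 2.35 times in C57MG. With the expected signal taken off, no Serpinh1 was left in either BC44 library, so that these data set no upper limit on the BC44 ratio.

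Collagen prolyl 4-hydroxylase joins an alpha subunit to the P4hb product, protein disulfide isomerase, which has many other substrates. P4hb was the most abundant of the enzyme genes, at 687 and 712 RPKM in BC44, 580 and 613 in HC11, with 681 and 612 in C57MG. Its differences of 0.23, 0.12 and -0.11 for BC44 minus HC11, BC44 minus C57MG and HC11 minus C57MG were not called (adjusted p = 0.059, 0.255 and 0.259). Quantile normalization moved them to 0.36 (adjusted p = 0.0122), -0.04 (adjusted p = 0.722) and -0.4 (adjusted p = 0.00482). BC44 minus HC11 was also called with a floor of 5 RPKM on the mean, robust variance or the cross-line signal subtracted (limma adjusted p = 0.0471, 0.0431 and 0.0377). Over all 16 alternatives the adjusted p ran from 0.0122 to 0.223, 0.199 to 0.803 and 0.00482 to 0.802. The alpha subunits were below P4hb in every library. P4ha1 was at 46.6 and 47.2 RPKM in C57MG, 19.0 and 19.6 in HC11, and 12.9 and 15.4 in BC44. P4ha2 was lowest in HC11 at 2.10 and 2.30 RPKM, 5.68 and 5.42 in BC44, and 11.4 and 10.5 in C57MG. Both were called in all 3 contrasts. P4ha3 was at 4.38 and 3.26 RPKM in C57MG and at most 0.161 elsewhere.

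The lysyl hydroxylases differ in where on the chain they act, Plod1 in the helix, Plod2 in the telopeptides, and Plod3 also adding sugars. Plod1 was at 31.3 and 29.3 RPKM in C57MG and between 5.06 and 5.89 in the other 4 libraries, which overlapped between BC44 and HC11. Plod2 was at 59.8 and 57.5 RPKM in C57MG, 27.6 and 27.8 in HC11, and 19.7 and 17.98 in BC44. Plod3 was at 34.1 and 35.4 RPKM in HC11, 27.5 and 27.7 in BC44, and 24.5 and 21.9 in C57MG. Plod3 thus led the family in BC44 and HC11, with 50.8% to 54.4% of its RPKM, and Plod2 led it in C57MG, with 51.8% and 52.9%. The BC44 minus C57MG difference of Plod3 (0.24, adjusted p = 0.032) was not called without BC44 replicate 1, BC44 replicate 2 or C57MG replicate 2 (adjusted p = 0.0892, 0.0961 and 0.214), nor with quantile normalization (0.0632) or median-ratio scaling (0.0515). Its lowest adjusted p over 16 alternatives was 0.0301.

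The lysyl oxidases changed in which gene was expressed as well as in amount. The deposited table held 4 of these genes and no row for Loxl2, so sums and shares are of the 4. They summed to 361.9 and 399.4 RPKM in C57MG, 78.7 and 82.2 in BC44, and 49.4 and 45.7 in HC11. Lox held 83.7% and 83.1% of the C57MG sum, while Loxl4 held 91.8% and 86.1% in BC44 and 89.7% and 93.0% in HC11. Lox (ENSMUSG00000024529) was at 303 and 332 RPKM in C57MG, 5.90 and 10.7 in BC44, and 0.302 and 0.508 in HC11. Its level was above the cross-line limit in BC44 replicate 1, at 1.86% of the C57MG mean, but not in replicate 2 or in either HC11 library. The difference was -5.14 (SE 0.23, adjusted p = 8.48e-07) for BC44 minus C57MG and -7.83 (SE 0.23, adjusted p = 2.41e-07) for HC11 minus C57MG.

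Of the 4 lysyl oxidase genes in the table, Loxl4 was the 1 that was lower in C57MG. It was at 72.2 and 70.8 RPKM in BC44, 44.4 and 42.5 in HC11, with 33.3 and 33.8 in C57MG, and all 3 contrasts were called (1.07, 0.71 and 0.36 for BC44 minus C57MG, BC44 minus HC11 and HC11 minus C57MG). The lines did not overlap, but the means of BC44 and C57MG were only 2.13-fold apart. Loxl1, known for crosslinking elastic fibres, was at 16.5 and 22.6 RPKM in C57MG and at most 0.172 elsewhere, not above the limit in any BC44 or HC11 library. Loxl3 was at 9.14 and 11.3 RPKM in C57MG, 4.67 and 2.68 in HC11, and 0.456 and 0.560 in BC44, and was called in all 3 contrasts.

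**Figure D4:**
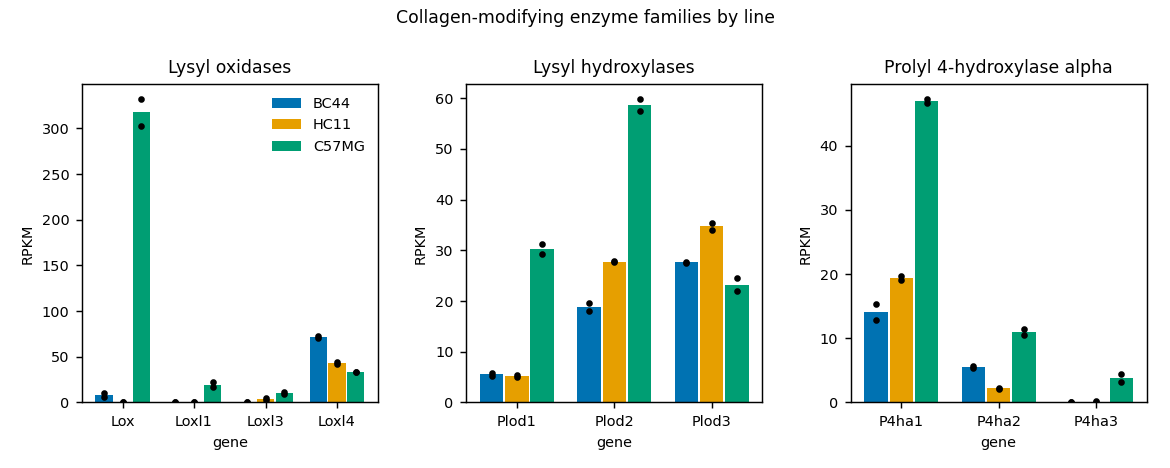
RPKM of the lysyl oxidases, lysyl hydroxylases and prolyl 4-hydroxylase alpha subunits in the 3 lines (bars, mean of 2 libraries from an axis at 0; dots, single libraries). Lox towers over the family in C57MG at 303 and 332 RPKM, while Loxl4 and Plod3 are the tallest bars of their families in BC44 and HC11.

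The fibrillin and fibulin genes, whose products belong to microfibrils and elastic fibres, did not share one pattern, with Fbn1 and Fbln1 highest in C57MG. Fbn1, the fibrillin-1 gene, was at 9.21 and 8.001 RPKM in C57MG and at most 0.180 elsewhere. Fbln1 was at 46.9 and 57.1 RPKM in C57MG, 0.407 and 0.840 in BC44, and 0.148 and 0.176 in HC11. Neither was above the limit in any BC44 or HC11 library, and both were called higher in C57MG than in either line. Fbln1 was also called higher in BC44 than in HC11 (0.47, adjusted p = 0.0423), a call that was lost with the cross-line signal subtracted (0.04, adjusted p = 0.797), among genes with a mean of 5 RPKM or more (0.47, adjusted p = 0.0534), and without BC44 replicate 2, HC11 replicate 1 or HC11 replicate 2 (adjusted p = 0.229, 0.132 and 0.118). Its lowest adjusted p over 16 alternatives was 0.00921. Fbln5, which binds elastin and integrins, was highest in BC44, at 3.13 and 1.87 RPKM in BC44, 0.942 and 0.718 in HC11, with 0.038 and 0 in C57MG. Its difference was 1.76 (SE 0.17, adjusted p = 5.51e-05) for BC44 minus C57MG. Fbln5 reached 1 RPKM in BC44 libraries only. It thus entered the test, and the counts of genes higher in BC44, through the line in which it was high. Fbln2 was not tested, at 0.687 and 0.464 RPKM in C57MG and 0.486 and 0.511 in HC11, which overlapped, against 0.093 and 0.107 in BC44.

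Fibronectin and Sparc, abundant in all lines, were highest in C57MG by a few fold. Fn1 (ENSMUSG00000026193) encodes fibronectin, the glycoprotein on which collagen fibrils are first laid down. It was at 614 and 704 RPKM in C57MG, 232 and 235 in BC44, and 179.6 and 261 in HC11. C57MG stood above the other 4 libraries, and the HC11 libraries lay on both sides of BC44. The difference was -1.49 (SE 0.16, adjusted p = 0.000109) for BC44 minus C57MG and 0.11 (SE 0.16, adjusted p = 0.612) for BC44 minus HC11. Leaving out HC11 replicate 1 turned the latter to -0.16 (adjusted p = 0.254), and leaving out replicate 2 gave 0.38 (adjusted p = 0.0318), where the 16 alternatives reached 0.765. Sparc, a collagen-binding matricellular protein, was at 559 and 526 RPKM in C57MG, 303 and 255 in HC11, and 180.5 and 143 in BC44. It was called in all 3 contrasts, with -1.75 for BC44 minus C57MG, -0.96 for HC11 minus C57MG and -0.79 for BC44 minus HC11.

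Tenascin-C and periostin, matricellular proteins often found in remodelling stroma, were low in C57MG and high in the other lines. Tnc was at 34.8 and 35.7 RPKM in BC44, 40.5 and 75.8 in HC11, with 1.88 and 0.893 in C57MG. Postn was at 79.6 and 83.0 RPKM in BC44, 75.7 and 46.4 in HC11, with 3.81 and 1.03 in C57MG. Both were called against C57MG, Tnc by 3.96 (SE 0.29) and 4.60 (SE 0.29) and Postn by 4.72 (SE 0.38) and 4.27 (SE 0.38) for BC44 and HC11, with adjusted p-values from 6.61e-06 to 3.99e-05. Neither was called between BC44 and HC11 (Tnc -0.64, adjusted p = 0.113, Postn 0.45, adjusted p = 0.372), but without HC11 replicate 1 Tnc was called higher in HC11 (-1.08, adjusted p = 0.0186, up to 0.57 over 16 alternatives). All 4 values in C57MG were above the cross-line limit, so that both genes were read as expressed there at a low level.

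The thrombospondins did not move together. Thbs1 was at 189 and 424 RPKM in HC11, 197 and 227 in BC44, and 117 and 133 in C57MG. HC11 was called higher than C57MG (1.18, SE 0.32, adjusted p = 0.0124), but its replicates were 2.24-fold apart. Without C57MG replicate 1 the call was lost (1.09, adjusted p = 0.0622, with 0.000147 the lowest of 16 alternatives). BC44 minus HC11 was -0.42 (adjusted p = 0.318), -1 (adjusted p = 0.00248) without HC11 replicate 1 and 0.16 (adjusted p = 0.348) without HC11 replicate 2. BC44 and C57MG did not overlap, and their difference of 0.76 (adjusted p = 0.0658) was called without HC11 replicate 1 or 2 (adjusted p = 0.00118 and 0.00117), while over the 16 alternatives it ran from 0.00112 to 0.246. Thbs2 was at 9.19 and 8.95 RPKM in C57MG and at most 0.165 elsewhere, not above the limit in BC44 or HC11. Thbs3 was at 12.7 and 9.91 RPKM in C57MG and between 1.58 and 2.61 in the other lines, and was called higher in C57MG than in both. Replicates of HC11 were in general further apart than those of the other lines: of 22 genes averaging 5 RPKM or more there, 7 differed more than 1.5-fold between replicates, against 4 of 25 in BC44 and 0 of 34 in C57MG.

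The cross-line limit separated 2 kinds of genes among the 24 that were at least 2-fold higher in C57MG than in both other lines. One kind kept a level of its own in both BC44 libraries: Fn1, P4ha1, Plod1, Plod2, Thbs3, Col3a1, Col4a1, Col5a1, Col6a1, Col16a1 and Loxl3. The other kind, Col1a1, Col6a3, Col23a1, Fbln1, Fbn1, Loxl1, P4ha3, Serpinh1 and Thbs2, was not above the limit in either BC44 library. In these 9 genes BC44 replicate 2 was 1.69 to 3.53 times replicate 1, with a median of 2.17. The mesenchymal markers Vim, Pdgfrb and S100a4 were 3.25, 3.03 and 1.91 times, but the markers did not move as a set. In BC44 replicates 1 and 2 Cdh2 was at 2.03 and 1.45 RPKM, Pdgfra at 0.954 and 0.987, and Snai2 at 32.1 and 42.9. The source of these ratios was not tested. Col1a2, Col5a3, Col6a2 and Lox were above the limit in replicate 1 only, at 1.71% to 1.93% of their C57MG means. In that library the upper quartile of the genes private to C57MG was 1.59%, itself above 2 times the C57MG signal, 1.32%. The same held in HC11, with upper quartiles of 0.818% and 1.52% against 0.508% and 0.734%. A value just above the limit is thus weak evidence of expression. In HC11 10 of the 24 were at or under 2 times the C57MG signal in each library. Serpinh1 and P4ha3 were above it in both HC11 libraries and not in BC44, and Col3a1 was above it in BC44 and not in HC11.

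**Figure D5:**
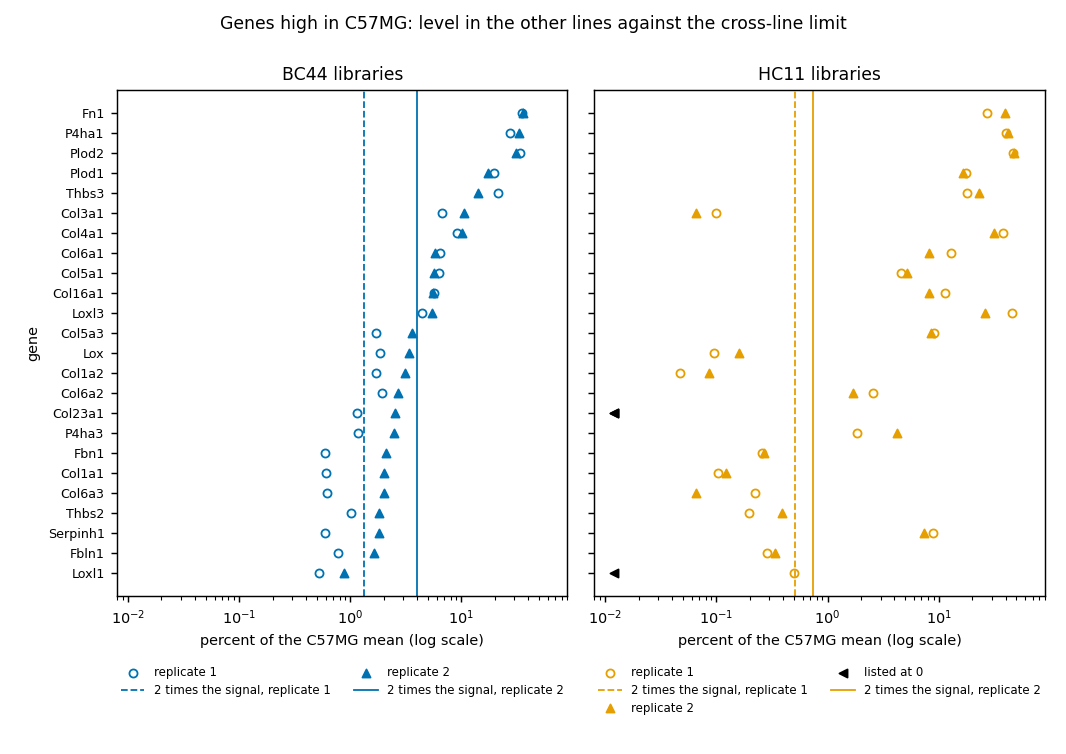
Level of the 24 genes high in C57MG, as a percent of their C57MG mean on a log axis, in the BC44 and HC11 libraries (circles, replicate 1; filled triangles, replicate 2), with vertical lines at 2 times the C57MG-like signal. Genes left of a line, such as Col1a1 at 0.610% and 2.03% in BC44, are not above the limit, and Fn1, P4ha1 and Plod2 lie far to the right.

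Of the genes that work with the collagens but fall outside the choice by symbol, most were also called higher in C57MG. Of 48 such genes in the table, for procollagen processing, elastic fibres and proteoglycans, and matrix receptors, 45 were tested. The cross-line limit was not applied to these partner genes, so their low values are not read as expression in a line. Between BC44 and C57MG 30 were called higher in C57MG and 5 in BC44, and between HC11 and C57MG 30 and 10, against the shares of all tested genes given above. Between BC44 and HC11 17 of the 45 were called higher in BC44 and 14 in HC11, against 24.7% and 23.0% of all tested genes. With the cross-line signal subtracted 26 rather than 31 of the 45 were called between these lines. Among the 18 procollagen processing and folding genes 12 and 13 were called higher in C57MG than in BC44 and HC11, against 34.1% and 33.2% of all tested genes, and 4 and 4 lower, against 37.5% and 37.4%.

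Pcolce, the enhancer of procollagen C-proteinase, was at 105 and 113 RPKM in C57MG, 1.74 and 2.82 in BC44, and 0.915 and 0.602 in HC11. The elastic fibre genes Emilin1 and Efemp2 were likewise highest in C57MG, Emilin1 with 71.2 and 73.0 RPKM in C57MG against at most 1.23 elsewhere. Efemp2, which brings lysyl oxidase to elastin, was at 108 and 100.526 RPKM in C57MG, 2.56 and 3.44 in BC44, and 0.325 and 0.316 in HC11. Emilin2 was at 63.2 and 60.1 RPKM in C57MG and at most 1.26 elsewhere. The collagen-modifying complex also had genes on the BC44 side. P3h4, a partner of lysyl hydroxylase in the endoplasmic reticulum, was at 20.8 and 16.7 RPKM in BC44, 1.41 and 0.801 in HC11, with 0.178 and 0 in C57MG (difference 4.18, SE 0.18, adjusted p = 7.17e-07 for BC44 minus C57MG).

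Other partner genes differed between BC44 and HC11, with C57MG on the side of either line. Ltbp1, a latent TGF-beta binding protein of the microfibril, was at 21.4 and 20.8 RPKM in BC44 against 1.06 and 2.04 in HC11, and C57MG had 31.5 and 35.0. Its relative Ltbp2 ran the other way, at 29.5 and 37.1 RPKM in HC11 against 0.518 and 1.19 in BC44, and C57MG had 46.1 and 36.4. The low BC44 values of Ltbp2 were not set against the cross-line limit. Hspg2, the perlecan gene of basement membranes, was at 56.7 and 44.5 RPKM in BC44 and 12.3 and 14.1 in HC11 (1.85, SE 0.20, adjusted p = 0.000242). In C57MG Hspg2 was at 28.7 and 43.2 RPKM. Tgm2, a matrix-crosslinking transglutaminase, was at 13.7 and 18.1 RPKM in HC11 and 1.29 and 0.883 in BC44 (-3.01, SE 0.27, adjusted p = 0.000119). In C57MG Tgm2 was at 14.3 and 27.0 RPKM. Dcn, the decorin gene, was at 1.68 and 3.78 RPKM in HC11 and listed at 0 in the BC44 and C57MG libraries. Of the remaining genes named by the same rule, Ltbp4 (2.97) and Tmem38b (1.36) were called higher in BC44 than in C57MG, and Itga2 (1.94) and Tmem38b (1.53) in HC11 than in C57MG. Itga2 was at 1.42 and 5.12 RPKM in HC11, 0.503 and 0.748 in BC44, and 0 in both C57MG libraries. Itga2 and Dcn thus entered the test only through HC11, the line in which they were high.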

How the data were processed

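RPKM per gene and library were computed by the authors and deposited as 1 table, rounded to 3 decimals; the submitters' processing notes name STAR and build mm9, and the counter, the annotation and the gene lengths are not given in the sources used here. All 11417 gene identifiers had exons in GENCODE M21 (GRCm38), whose exon lengths served for read estimates only. Reads per library were estimated from the steps of low values: 75.0% to 83.4% of 193 to 310 values lay within 0.15 of a whole number of up to 6 reads, against 30% by chance. A doubled depth can fit such steps as well, and the lower was kept. Read floors cover counting error only. The lengths behind the RPKM may differ from these, so depths are approximate. Genes sharing reads with paralogs or antisense genes are uncertain.

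The test was that of limma 3.58.1 on log2(RPKM + 1) (R 4.3.3; eBayes with trend, all 6 libraries, two-sided, Benjamini-Hochberg over 10759 genes with at least 1 RPKM in at least 2 libraries); fold changes of low genes are understated on this scale. On simulated data over 10759 genes, 200 genes were changed by 1.5 on the log2(RPKM + 1) scale. Of these 190 were called for BC44 against HC11, of 200 calls in all, and 188 for BC44 against C57MG, of 194.

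Private genes had a donor mean of at least 20 RPKM, at most 2% of it in the third line and at most 5% in the other replicate. Genes averaging 1 RPKM or more in some line were named by role; partner genes were the 3 largest called, non-overlapping differences per contrast and direction. The genes and lists were chosen with earlier results of these data known. Python 3.11.15, numpy 2.4.6, pandas 2.3.3 and, for figures, matplotlib 3.10.9 did the other steps. Alternatives are listed in the closing section.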

Additional observations from a re-analysis of the deposited data

How the results depend on the processing

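Alternatives were a pseudocount of 0.1, no filter, quantile normalization, a floor of 5 RPKM on the mean, scaling by median ratios, limma on the 4 libraries compared, without trend or with robust variance, the replicate block, subtraction of the cross-line signal, other cut-offs for private genes, and leaving out each library, where a lone library is assumed to vary like the others. The counts of matrix genes called stayed within 1.5 times the main count. Over the alternatives other than left-out libraries they were 12 to 17 (higher in BC44) and 11 to 15 (higher in HC11) for BC44 against HC11, 11 to 15 and 21 to 29 for BC44 against C57MG, and 10 to 12 and 23 to 30 for HC11 against C57MG. Leaving out a library gave 11 to 14 and 8 to 14, 11 to 13 and 27, and 10 to 12 and 28 to 29. Without Col4a3bp each count changed by at most 1.

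Of 126 gene differences 25 changed direction or call in at least 1 of up to 16 alternatives. Of 1995 values 31 lost a call, 21 gained one and 8 changed sign, none of the 8 called. These were, for BC44 against HC11, Col6a2 (-0.55 with subtraction, -0.09 without BC44 replicate 2, -0.12 without HC11 replicate 2, up to 0.32 without HC11 replicate 1), Fn1 (-0.16 without HC11 replicate 1, 0.38 without replicate 2), Loxl1 (-0.03 with subtraction), Thbs1 (0.16 without HC11 replicate 2, -1 without replicate 1) and Thbs3 (0.04 without BC44 replicate 2, -0.36 without replicate 1), and for BC44 against C57MG P4hb (-0.04, quantile normalization). The cause was not tested. The share of fibrillins and fibulins in BC44, 0.296%, moved to 0.231% with genes above the limit only and to 0.239% with the signal subtracted; both remove signal by construction.

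The replicate numbers come from the library titles, with no sign that they pair cultures. The correlation of same-numbered deviations across genes was 0.354 between BC44 and HC11, -0.039 between BC44 and C57MG, and 0.038 between HC11 and C57MG. The fit with the replicate block called 14 genes higher in BC44 and 13 in HC11, 13 in BC44 and 27 in C57MG, and 12 in HC11 and 29 in C57MG, in the same order of contrasts. Depth limits genes near 3 reads, and the cross-line signal limits the rest of the low values.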
